A study of Mus musculus with 24 samples.

Results

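Granule neurons of the cerebellum were followed through 10 genes of their differentiation in whole cerebellar RNA of neonatal mice given ethanol. The genes are Barhl1, Pax6, Zic1, Zic2, Neurod1, Neurod2, Cntn2, Rbfox3, Nfia and Nfix. They were taken by gene name from a table of 55416 gene rows, in which each has 1 row, and all 10 were among the 17736 genes that passed the filter on low counts. C57BL/6J pups of both sexes received ethanol in intralipid by gavage into the stomach on P4, or on P4 and P5, and the cerebellum was taken 24 hours after the last dose, at P5 or P6. Control pups received the same intralipid with water in place of ethanol. There were 12 Ethanol and 12 Control libraries, 1 per animal. The labels name the tissue only as brain and give neither the age nor the sex of an animal, so each value below covers P5 and P6 together.

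Granule neurons are the most abundant neurons of the cerebellum, and in the mouse most of them are made after birth. Their precursors express Atoh1 and divide in the external granule layer, where Sonic hedgehog released by Purkinje cells keeps them in the cell cycle. Daughter cells leave the cycle in the inner part of that layer, grow parallel fibers and migrate inward past the Purkinje cells to the granule layer. The genes described here mark successive parts of that course. Pax6, Zic1, Zic2 and Barhl1 encode transcription factors of the precursors and of young granule neurons. Neurod1 and Neurod2 encode basic helix-loop-helix factors of cells that have begun to differentiate. Cntn2 encodes the adhesion protein TAG-1 of early postmitotic granule neurons, and Rbfox3 encodes the neuronal splicing factor NeuN. Nfia and Nfix encode nuclear factor I proteins, which take part in the maturation of granule neurons and are also made in glia.

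The libraries held 26982564 to 38804942 counts each, and a gene of the 10 held 3492 to 48826 counts in a library. Levels are given in CPM, the count of a gene scaled to a fixed total by TMM-adjusted library sizes, and they are compared between animals and not between genes. The 148 genes described or listed here, among them Atoh1, the Purkinje cell gene Pcp2 and the granule neuron gene Gabra6, had counts in every library. Counts above 0 at this depth cannot tell one brain region from another, so the cerebellar origin is taken from the study's methods. Ttr, the leading transcript of the choroid plexus, was at 1.15 to 3.57 CPM in 4 libraries, 2 Ethanol and 2 Control, and at 322 to 5049 CPM in the other 20 libraries. In order of animal number the libraries fell into 6 runs of 4, each with 2 Ethanol and 2 Control animals. By the study's methods, a male and a female pup of each treatment were drawn from each of 6 litters, and each litter served for one age. The runs have the same makeup by treatment, but no label ties an animal number to a litter or an age, so whether the runs are litters could not be checked from the labels. They are used here as a grouping by number.

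Promoters of 3 genes are printed because Cntn2 and Rbfox3 varied together most closely across animals and Barhl1 was the gene that passed the test. Each is the RefSeq window from 250 bases before to 50 bases after the annotated start on GRCm38.p6, on the minus strand, and capitals mark TTGGC or its reverse complement GCCAA, the half-site of nuclear factor I proteins. The windows lie at chr1:132542891-132543190 for Cntn2, chr11:118760992-118761291 for Rbfox3 and chr2:28916619-28916918 for the Barhl1 start shown.
Cntn2: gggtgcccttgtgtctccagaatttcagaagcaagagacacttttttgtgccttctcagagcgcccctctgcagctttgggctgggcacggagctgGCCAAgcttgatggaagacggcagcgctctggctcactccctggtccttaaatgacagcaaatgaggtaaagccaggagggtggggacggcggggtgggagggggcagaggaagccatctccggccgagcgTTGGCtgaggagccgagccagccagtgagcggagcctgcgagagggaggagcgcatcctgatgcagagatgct
Rbfox3: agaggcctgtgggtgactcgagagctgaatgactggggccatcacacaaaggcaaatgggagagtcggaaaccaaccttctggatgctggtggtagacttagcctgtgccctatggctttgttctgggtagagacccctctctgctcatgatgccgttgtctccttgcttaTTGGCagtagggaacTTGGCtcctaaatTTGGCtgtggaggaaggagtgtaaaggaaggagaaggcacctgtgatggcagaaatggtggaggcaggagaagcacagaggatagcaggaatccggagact
Barhl1: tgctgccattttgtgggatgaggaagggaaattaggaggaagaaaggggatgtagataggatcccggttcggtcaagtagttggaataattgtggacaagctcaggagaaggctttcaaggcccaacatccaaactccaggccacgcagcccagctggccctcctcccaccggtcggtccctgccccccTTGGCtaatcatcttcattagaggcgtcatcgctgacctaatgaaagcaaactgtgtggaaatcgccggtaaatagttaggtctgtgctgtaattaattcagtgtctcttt
The Cntn2 window held 2 of these half-sites, the Rbfox3 window 3 and the Barhl1 window 1, while the second Barhl1 window, not printed, held 0. Of the 10 genes, 9 had an entry, with 14 windows in all, and 8 windows of 6 genes held TTGGC on either strand, compared with 46.7% of 32851 promoters. Such a match is a description of the letters.

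In the comparison of 12 with 12 animals 1 of the 10 genes passed the test, and with the runs as a block 3 passed. Barhl1 was lower in Ethanol than in Control animals, with a log2 fold change of -0.18, and no gene was higher (edgeR's quasi-likelihood test, Benjamini-Hochberg adjusted p under 0.05). With the block, Neurod1 was higher (0.22; edgeR, adjusted p = 0.0255) and Nfix was lower (-0.17; edgeR, adjusted p = 0.00907) beside Barhl1 (-0.18; edgeR, adjusted p = 0.0315). Across all genes tested 14.9% passed, 9.07% higher and 5.8% lower, so 1 of 10 without the block was no more than the background share. With the block 18.9% of all genes tested passed, and the 3 of 10 were not tested against that share. The median log2 fold change of the 10 genes without the block was -0.042, and that of all genes tested was -0.0057. With upper-quartile scaling, which turned the division of all calls from 61.0% to 49.6% higher, Barhl1 was likewise the gene that passed. In bulk RNA, fewer granule neurons and less RNA per cell cannot be told apart.

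**Figure D1:**
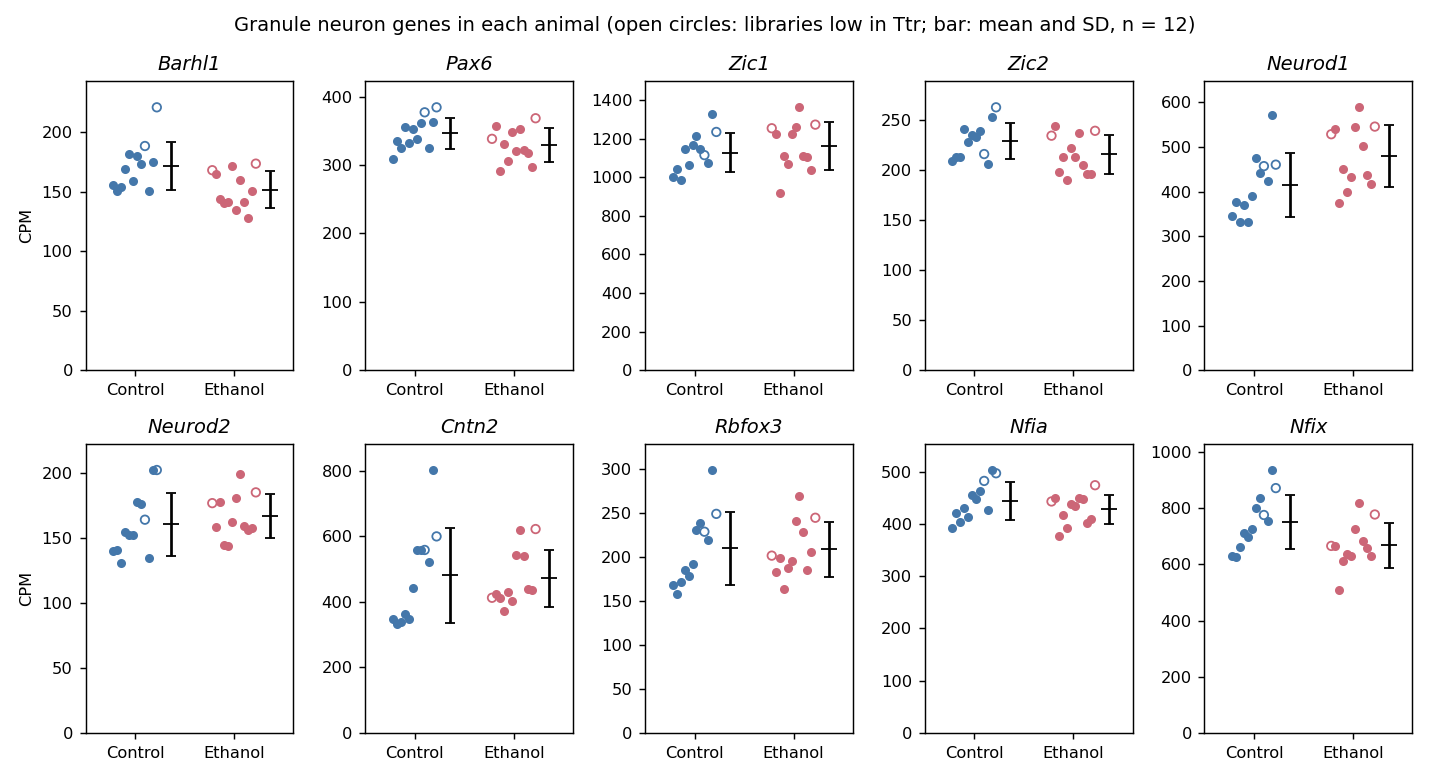
Level of each gene in CPM (y axis, from 0) in 12 Control and 12 Ethanol animals, ordered from left to right by animal number within each group, with bars for the mean and SD and open circles for the 4 libraries low in Ttr. The groups overlap for all 10 genes, and 6 Ethanol animals lie below all Control animals for Barhl1.

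Barhl1 encodes a homeodomain factor that acts downstream of Atoh1 in granule cells. Its level was 151, 171 and 221 CPM (lowest, median, highest) in Control animals and 128, 148 and 174 CPM in Ethanol animals. Of 12 Ethanol animals, 10 were under the Control median and 6 were under the lowest Control animal, yet the groups overlapped. The means were 172 ± 20.2 and 152 ± 15.6 CPM (SD, n = 12 each). The log2 fold change of -0.18 had an SE of 0.060 and a 95% interval from -0.30 to -0.056, which is a change of -11.7% in the level (edgeR, adjusted p = 0.0442). This call sat close to the threshold. It was lost when any one of 14 animals was left out, and over 39 alternatives the adjusted p ran from 0.0214 to 0.162 with a negative fold change in all of them. The highest animal, Control X4770 at 221 CPM, was 1 of the 4 libraries low in Ttr. Without those 4 libraries the log2 fold change was -0.15 (edgeR, adjusted p = 0.0469).

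Pax6 encodes a paired-domain and homeodomain factor needed for the migration of granule neurons and the growth of parallel fibers. It measured 308, 346 and 384 CPM in Control and 292, 327 and 368 CPM in Ethanol animals. The 3 lowest Ethanol animals lay under every Control animal, and 8 of 12 lay under the Control median. The log2 fold change was -0.074 (SE 0.040, 95% interval from -0.15 to 0.0073; edgeR, adjusted p = 0.223). This difference did not pass the test.

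Zic1 and Zic2 encode zinc finger factors held by granule cells from precursor to neuron. Zic1 was at 985, 1130 and 1328 CPM in Control animals and at 920, 1168 and 1362 CPM in Ethanol animals, with 6 Ethanol animals on each side of the Control median. Zic2 was at 205, 230 and 262 CPM in Control and at 190, 213 and 244 CPM in Ethanol animals, of which 5 lay under every Control animal. The log2 fold changes were 0.045 for Zic1 (95% interval from -0.067 to 0.16; edgeR, adjusted p = 0.642) and -0.086 for Zic2 (from -0.18 to 0.0084; edgeR, adjusted p = 0.222). Neither passed the test.

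Neurod1, required for the differentiation and survival of granule neurons, had the largest positive fold change of the 10 genes. Its level was 332, 407 and 571 CPM in Control animals and 375, 476 and 589 CPM in Ethanol animals. The Control median was exceeded in 10 of 12 Ethanol animals, and 1 lay above the highest Control animal, X4768. The log2 fold change was 0.21 (SE 0.089, 95% interval from 0.028 to 0.40; edgeR, unadjusted p = 0.0259, adjusted p = 0.114). The test across all genes was thus not passed. Neurod2, a related factor of later stages, was at 131, 153 and 202 CPM in Control and at 144, 161 and 199 CPM in Ethanol animals. Its log2 fold change was 0.055 (95% interval from -0.092 to 0.20; edgeR, adjusted p = 0.668).

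Cntn2 and Rbfox3, the markers of cells that have left the cycle, had the widest spread between animals of one group. Cntn2 was at 333, 482 and 803 CPM in Control animals and at 371, 433 and 622 CPM in Ethanol animals, so every Ethanol animal lay within the Control range. The log2 fold change was -0.029 with an SE of 0.14 and a 95% interval from -0.32 to 0.26 (edgeR, adjusted p = 0.921). Rbfox3 was at 157, 205 and 298 CPM in Control and at 164, 200 and 269 CPM in Ethanol animals, again within the Control range. Its log2 fold change was -0.0081 with a 95% interval from -0.21 to 0.19 (edgeR, adjusted p = 0.969). For both genes the sign was not fixed, since it turned positive without run 6 and in several other settings. As a change in level, the interval for Cntn2 runs from -19.9% to 19.8%.

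Neither Nfia nor Nfix passed the test, and Nfix came closer to the threshold. Nfia was at 393, 439 and 503 CPM in Control and at 376, 436 and 474 CPM in Ethanol animals, with a log2 fold change of -0.055 (95% interval from -0.14 to 0.030; edgeR, adjusted p = 0.411). Nfix was at 625, 741 and 936 CPM in Control and at 509, 661 and 818 CPM in Ethanol animals. For Nfix 10 of 12 Ethanol animals lay under the Control median and 2 under every Control animal. Its log2 fold change was -0.17 (SE 0.069, 95% interval from -0.31 to -0.031; edgeR, unadjusted p = 0.0189, adjusted p = 0.0921). No test was made of the difference between the 2 genes.

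**Figure D2:**
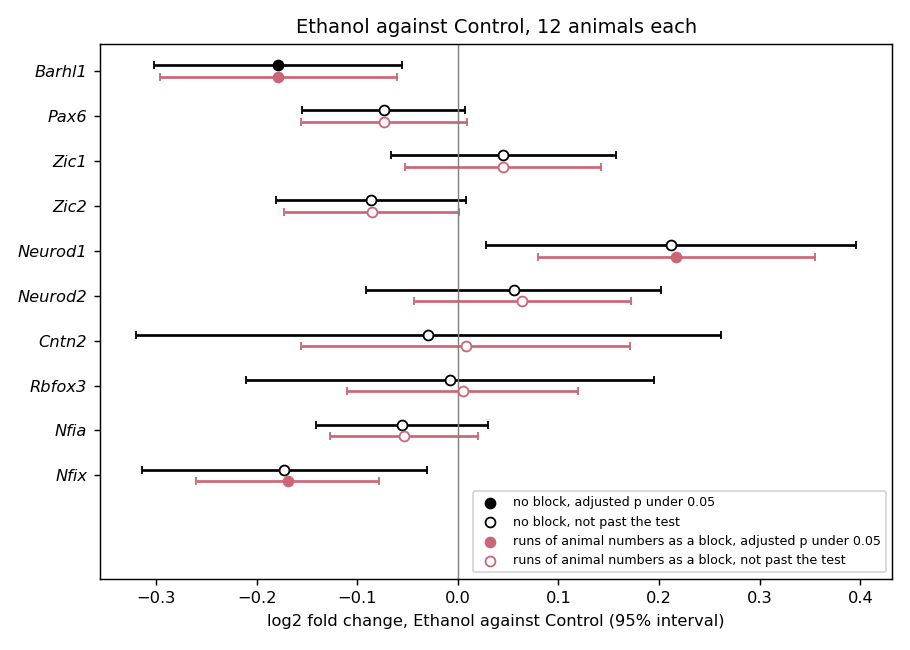
Log2 fold change of each gene, Ethanol against Control, with its 95% interval (x axis), for the fit without and with the 6 runs as a block. The block leaves the Neurod1 and Nfix estimates near 0.21 and -0.17 and narrows their intervals.

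The median spread between animals was larger over these genes than over all genes tested. The SD of log2 CPM within groups had a median of 0.167 over the 10 genes, 0.128 over all genes tested and 0.0949 over the 11034 genes at 10 CPM or more. It ran from 0.101 for Pax6 and 0.107 for Nfia to 0.245 for Rbfox3 and 0.344 for Cntn2. Part of this spread lay between runs of animal numbers. With treatment in the model, in a test added after the values were seen, the level differed between runs for 4 of the 10 genes, compared with 6.5% of all genes tested (edgeR, adjusted p = 0.00536 for Cntn2, 0.00451 for Rbfox3, 0.00889 for Nfix and 0.0449 for Neurod2). The mean log2 CPM of Cntn2 differed by 0.70 between the lowest and highest run, that of Rbfox3 by 0.48 and that of Pax6 by 0.11.

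Cntn2 shows how the runs were arranged. In runs 1, 2 and 3 its 12 libraries lay between 333 and 443 CPM, and in runs 4, 5 and 6 the other 12 lay between 435 and 803 CPM. The highest, Control X4768 at 803 CPM, and the second Control animal of its run, X4770 at 599.9 CPM, stood in run 6 beside Ethanol animals at 435 and 622 CPM. Run 6 had the highest mean for 8 of the 10 genes, and run 4 for Zic1 and Neurod1. Run 2 had the lowest mean for 7 genes. Whether the runs differ in age, litter or handling was not tested, because no source used here gives these for an animal.

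Within runs, the difference between Ethanol and Control was described from 2 animals of each treatment. Neurod1 was higher in Ethanol in 5 of 6 runs, by 0.57, 0.23, 0.21, 0.31 and 0.09 in log2 CPM in runs 1 to 5, and by -0.11 in run 6. Barhl1 was lower in 5 of 6 runs, with 0.12 in run 1 and then -0.18, -0.13, -0.27, -0.33 and -0.28. Nfix was also lower in 5 of 6 runs, with 0.08 in run 1 and then -0.30, -0.17, -0.09, -0.19 and -0.37. All 10 genes had their highest difference in run 1, where all were above 0. In run 6 all 10 differences were below 0, and for 9 genes, Barhl1 being the exception, that was the lowest of the runs. The 10 genes varied together from animal to animal, so these are not 10 separate observations. In run 1, Controls X4570 and X4571 had 0 genes above the mean of their treatment group, and Ethanol X4568 and X4569 had 8 and 7. In run 6, Controls X4768 and X4770 had all 10 above it, and Ethanol X4765 and X4766 had 1 and 10.

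**Figure D3:**
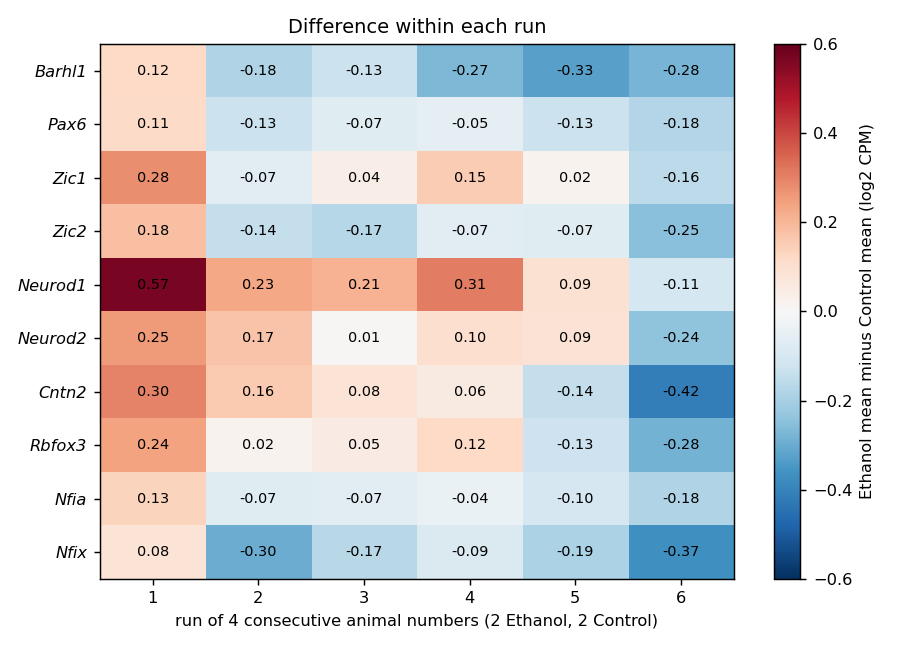
Ethanol mean minus Control mean in log2 CPM (color) for each gene (rows) in each run of 4 animal numbers (columns), 2 Ethanol and 2 Control animals per cell. Run 1 is above 0 and run 6 below 0 for all 10 genes, with Neurod1 at 0.57 in run 1 and Cntn2 at -0.42 in run 6. The genes varied together from animal to animal, so the rows are not separate observations.

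That turn of sign between runs was tested as an interaction of treatment with run, a test chosen after the values were seen. None of the 10 genes passed after adjustment over all genes (edgeR, lowest adjusted p = 0.756, for Nfix). At an unadjusted p under 0.05 there were 3, Nfix with 0.0322, Neurod1 with 0.0395 and Zic2 with 0.0437. The share of all genes at that unadjusted threshold was not taken, so the count of 3 has no background beside it. After adjustment 0.0677% of all genes tested passed. A difference between runs in the effect of ethanol was thus not detectable for these genes with 2 animals of each treatment in a run.

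The fit with the runs as a block had smaller standard errors for Neurod1 and Nfix. Neurod1 was then higher (log2 fold change 0.22, SE 0.066, 95% interval from 0.080 to 0.35; edgeR, adjusted p = 0.0255), and Nfix (-0.17, SE 0.044; edgeR, adjusted p = 0.00907) and Barhl1 (-0.18, SE 0.057; edgeR, adjusted p = 0.0315) were lower. The background rose too, to 11.2% of all genes higher and 7.68% lower. Pax6, Zic1, Zic2, Neurod2, Cntn2, Rbfox3 and Nfia did not pass with the block either, with adjusted p from 0.163 to 0.963 in edgeR. Neurod1 also passed when run 6 was left out (0.29; edgeR, adjusted p = 0.0310) or when Control X4768 was left out (0.26; edgeR, adjusted p = 0.0288).

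The 10 genes rose and fell together from animal to animal. After group means were removed, all 45 pairs had a Pearson r above 0 over 24 libraries, with a median of 0.713, and 44 passed a two-sided permutation test adjusted over the 45 pairs, while 42 passed by Spearman's rho. All values come from the same libraries and share their depth and scaling. The permutation treated the 24 libraries as exchangeable, although the level of some of these genes differed between runs. The p-values of pairs, here and below, can therefore be too small. For comparison, the median r over all pairs of 11002 genes at 10 CPM or more was -0.0005. An r above 0.5 was found in 8.46% of those pairs and in 38 of the 45 pairs here. Genes of several other lists shared part of this variation, given here as a description over the same 24 libraries with group means removed. The median r with the 10 genes was 0.574 for genes of cell cycle exit and migration, 0.451 for paralogs and 0.436 for granule neuron maturation. It was 0.417 for Purkinje cells, 0.316 for GABAergic interneurons, 0.253 for microglia and 0.248 for granule precursors. For astrocytes and Bergmann glia it was 0.0983, for the oligodendrocyte lineage 0.0933 and for unipolar brush cells and nuclei 0.0759. It was -0.253 for endothelium and -0.393 for meninges and fibroblasts. For the choroid plexus it was -0.443, the lowest of the lists. That value pools the 4 libraries low in Ttr with the other 20, so it is not read further. Granule precursors thus stood no higher than interneurons or microglia. These medians used only list genes at 10 CPM or more. That left 10 genes of granule precursors, 6 of interneurons, 4 of microglia and 2 of unipolar brush cells and nuclei. Over the 10 genes, the r of Nfib ran from 0.545 with Barhl1 to 0.918 with Nfia. That of Fat2, an adhesion gene of granule neurons, ran from 0.302 with Barhl1 to 0.911 with Cntn2. That of Atoh1, by contrast, ran from -0.41 with Cntn2 to 0.295 with Barhl1. The close variation was thus not particular to the 10 genes.

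The closest pair was Cntn2 and Rbfox3, the markers of postmitotic granule neurons, with r = 0.964 and rho = 0.922 (permutation test, adjusted p = 3e-05 and 3.7e-05). Their r was 0.951 without the 2 libraries farthest from the median of Cntn2 and 0.891 with run means removed too. Pax6 and Nfia followed with r = 0.886 and rho = 0.915, Cntn2 and Nfix with 0.880 and 0.917, and Neurod1 and Nfix with 0.876 and 0.883 (permutation test, adjusted p = 3e-05 for each r and 3.7e-05 for each rho). These values come from raw p of 1e-05, the smallest that 100000 permutations can give. Without the 2 farthest libraries r was 0.853, 0.840 and 0.831 for these 3 pairs. Within runs, that is with run means removed, it was 0.919, 0.661 and 0.858.

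The paralogs were close as well. Zic1 and Zic2 had r = 0.824 and rho = 0.830, Nfia and Nfix 0.846 and 0.835 (permutation test, adjusted p = 3e-05 and 3.7e-05 for r and rho of both pairs), and Neurod1 and Neurod2 0.713 and 0.677 (0.000235 and 0.000639). Without the 2 farthest libraries r was 0.839, 0.791 and 0.754, and with run means removed it was 0.868, 0.797 and 0.560. The 2 loosest pairs both held Barhl1. Its r with Cntn2 was 0.367 and its rho 0.380 (permutation test, p = 0.0780 for r and 0.0670 for rho, each the same after adjustment). With Neurod1 they were 0.418 and 0.396 (permutation test, raw p = 0.0433 and 0.0561, adjusted p = 0.0442 and 0.0573). Without the 2 farthest libraries these r were 0.300 and 0.383, and with run means removed 0.307 and 0.411. Over all 45 pairs the median r was 0.661 with run means removed, and all 45 stayed above 0. By permutation 44 pairs passed then, but values were shuffled across runs and the fitted run means were not counted. Such p-values are too small, so that count cannot show how many of the weaker pairs hold within runs.

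**Figure D4:**
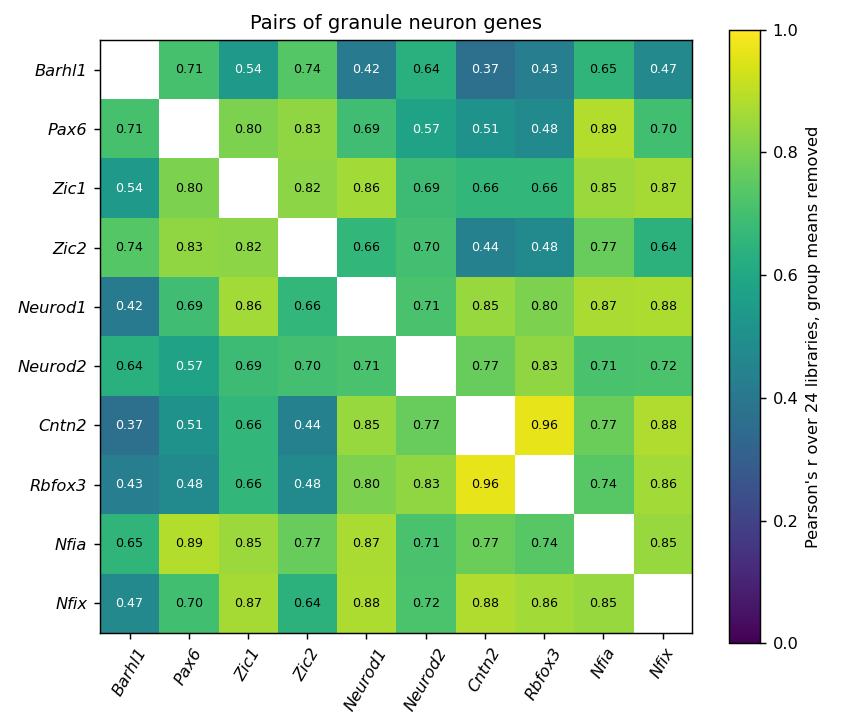
Pearson's r (color) for each pair of the 10 genes over 24 libraries, log2 CPM with group means removed. All 45 pairs are above 0, from 0.367 for Barhl1 with Cntn2 to 0.964 for Cntn2 with Rbfox3.

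The libraries themselves differed in the same way. In Control X4768 all 10 genes stood above the group mean, with a median deviation of 0.285 in log2 CPM, and in Ethanol X4694 all 10 did so with 0.249. The same held for Control X4697 with 0.0849 and for Ethanol X4766 and Control X4770. In Controls X4570, X4571 and X4677 all 10 stood below it, with median deviations of -0.180, -0.147 and -0.181, and in Ethanol X4681 and X4760 with -0.118 and -0.0883. The 4 libraries low in Ttr had median deviations of 0.0718, 0.123, 0.182 and 0.213, all above the group mean. Without them Cntn2 and Rbfox3 had an r of 0.963, and 35 of the 45 pairs passed.

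Other genes of the granule lineage were read from lists for the successive stages. Of 10 genes of granule precursors 2 rose and none fell, of 18 genes of cell cycle exit and migration 3 rose and none fell, and of 15 genes of granule neuron maturation none rose and 2 fell. None of 12 paralogs of the 10 genes passed. Out of all genes tested 14.9% passed, so these counts stood near the background and are no result about a stage. The medians of the log2 fold changes were -0.013, 0.037, 0.074 and -0.041 in that order, beside -0.0057 over all genes tested. The summed levels of the precursor list were 1589 to 1821 CPM in Control and 1504 to 1767 CPM in Ethanol animals.

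Among the precursor genes, Mycn, which drives proliferation under Sonic hedgehog, rose with a log2 fold change of 0.26 (SE 0.045; edgeR, adjusted p = 0.000281). It went from 103 ± 6.99 to 123 ± 11.6 CPM (SD, n = 12 each), and all 12 Ethanol animals lay above the Control median. Atoh1, the factor that defines the precursors, rose by 0.20 (SE 0.067; edgeR, adjusted p = 0.0474), but it passed in only 9 of 39 alternatives. The hedgehog target genes Gli1 and Ptch1 had log2 fold changes of 0.0078 and 0.015 (edgeR, adjusted p = 0.934 and 0.794). The remaining precursor genes Gli2, Hhip, Ccnd1, Ccnd2, Sfrp1 and Boc did not pass.

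Of the genes of cell cycle exit and migration, Nhlh1, a basic helix-loop-helix factor of newly postmitotic neurons, rose most. Its level was 57.6, 62.0 and 91.2 CPM in Control and 69.6, 92.0 and 121 CPM in Ethanol animals, with all 12 Ethanol animals above the Control median (log2 fold change 0.42, SE 0.099; edgeR, adjusted p = 0.00536). Its relative Nhlh2 rose by 0.22 (SE 0.058; edgeR, adjusted p = 0.0111), and Btg2, an antiproliferative gene of cells that leave the cycle, rose by 0.22 (SE 0.054; edgeR, adjusted p = 0.00647). Mycn, Nhlh1 and Btg2 passed in all 39 alternatives and Nhlh2 in 38, being lost without run 1. The migration genes Dcx, Astn1 and Sema6a had log2 fold changes of 0.014, -0.039 and 0.012 and did not pass.

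In the maturation list Efnb1, an ephrin, fell by 0.16 on the log2 scale (SE 0.045; edgeR, adjusted p = 0.0165), with all 12 Ethanol animals under the Control median. Cdh2, which encodes N-cadherin, fell by 0.098 (SE 0.030; edgeR, adjusted p = 0.0283). Both are made by many cell types. The granule neuron genes Gabra6 and Fat2 had log2 fold changes of 0.14 (SE 0.43) and 0.074 (SE 0.13) and did not pass. The paralogs of highest level, Nfib and Rbfox2, had 0.016 (SE 0.044; edgeR, adjusted p = 0.852) and -0.0022 (SE 0.031; edgeR, adjusted p = 0.973).

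**Figure D5:**
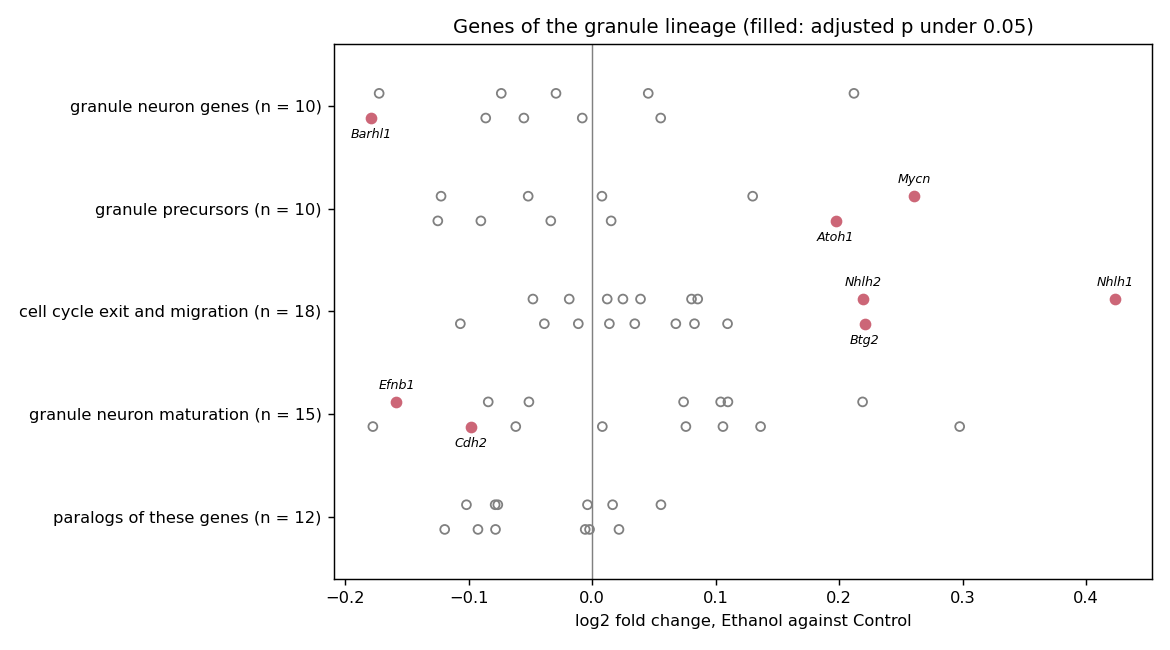
Log2 fold change, Ethanol against Control (x axis), of each gene in the 10 genes described and in the lists of the granule lineage (rows), with filled points and names for adjusted p under 0.05 in edgeR. Barhl1, Efnb1 and Cdh2 are lower, and Mycn, Atoh1, Nhlh1, Btg2 and Nhlh2 are higher.

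Markers of several other cerebellar cell types differed between the same groups of animals, and the counts below stand beside 14.9% of all genes tested. Of 12 genes of astrocytes and Bergmann glia 5 rose and 2 fell, with summed levels of 4250 to 4889 CPM in Control and 4680 to 5242 CPM in Ethanol animals. Gfap, the intermediate filament of astrocytes, rose by 0.99 (SE 0.18; edgeR, adjusted p = 0.000643) and the glial factor Sox9 by 0.24 (edgeR, adjusted p = 0.000220), while Gdf10 of Bergmann glia changed by -0.25 (edgeR, adjusted p = 0.000395). Nfia and Nfix are also made in these glia. Their part in the Nfia and Nfix values was not tested.

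Of 11 Purkinje cell genes none rose and 3 fell, with summed levels of 1767 to 2176 CPM in Control and 1661 to 1963 CPM in Ethanol animals. Car8, a Purkinje cell protein that binds the IP3 receptor, changed by -0.17 (SE 0.033; edgeR, adjusted p = 0.000848), and Pcp4 and Rora by -0.13 and -0.19 (edgeR, adjusted p = 0.0289 and 0.0442). Of 39 alternatives, Car8 passed in 39, Pcp4 in 32 and Rora in 21. Of 9 genes of GABAergic interneurons 1 rose and none fell, the early marker Ptf1a by 0.43 (edgeR, adjusted p = 0.0156). Of 4 genes of unipolar brush cells and nuclei, which share the rhombic lip origin of granule neurons, Eomes rose by 0.35 (edgeR, adjusted p = 0.0298), passing in 30 of 39 alternatives. Summed levels were 364 to 467 and 383 to 453 CPM for the interneuron list and 97.5 to 148 and 103 to 144 CPM for the unipolar brush cell list, in Control and Ethanol animals in that order.

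Of 10 microglial genes 4 rose and 1 fell, with summed levels of 157 to 220 CPM in Control and 166 to 273 CPM in Ethanol animals; C1qa rose by 0.54 (edgeR, adjusted p = 0.00369) and the resting receptor gene P2ry12 changed by -0.53 (edgeR, adjusted p = 0.0116). Of 8 endothelial genes 1 rose and 5 fell, Eng by -0.33 (edgeR, adjusted p = 4.28e-05), with summed levels of 390 to 440 and 339 to 396 CPM. Of 8 genes of meninges and fibroblasts none rose and 3 fell, Lum by -0.65 (edgeR, adjusted p = 0.00274), with summed levels of 619 to 976 and 518 to 837 CPM. None of 10 genes of the oligodendrocyte lineage and none of 11 of the choroid plexus passed; Mbp had 0.10 and Ttr -0.27 (edgeR, adjusted p = 0.815 and 0.880). Their summed levels were 808 to 1985 and 828 to 1560 CPM for oligodendrocytes and 125 to 6019 and 137 to 6030 CPM for choroid plexus. What part any of these cell types has in the values of the 10 genes was not tested.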

How the data were processed

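Poly(A) RNA of 24 cerebella was sequenced as paired ends. The authors deposited estimated counts for each gene. The submitters' processing notes list STAR, Salmon and limma with the build GRCm39, without versions. The annotation release and whether reads were counted by strand were not given in the sources used here. Groups came from the labels. All columns matched a label (0 were left unmapped). The kits for homogenization and RNA extraction differ between the labels and the study's methods. By label each library is a separate animal, and the lowest mean chi-square of 276 library pairs was 4.89 per gene, where sampling noise gives 1. Of all values, 10.918% lay more than 0.01 away from a whole number, and all were rounded. Libraries held 26982564 to 38804942 counts, and no count of the 10 genes was under 3492.

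Genes were filtered with filterByExpr (17736 left), scaled by TMM and fitted in edgeR 4.0.16 under R 4.3.3 (robust glmQLFit, glmQLFTest), with Benjamini-Hochberg adjusted p under 0.05 over all genes tested. The SE came from the F statistic. Log2 CPM used a prior count of 2. Pairs of genes were tested by two-sided permutation (100000 resamples) with Python 3.11.15, numpy 2.4.6, scipy 1.17.1 and pandas 2.3.3. Plots were drawn with matplotlib 3.10.9. The scripts were tested on simulated data.

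The 10 genes and all lists were chosen with earlier results of these data known, and the 4 libraries with Ttr below 4 in log2 CPM and the runs of animal numbers were known from them too. Named were all 10 genes; of each list up to 3 genes of smallest p in each direction past the test, or the 2 of highest level where none passed; and the 4 highest, the 2 lowest and 3 paralog pairs. The text draws its examples from these. The correlations of Nfib, Fat2 and Atoh1 with the 10 genes lay outside this rule. Gli1, Ptch1, Dcx, Astn1, Sema6a, Gabra6, Fat2, the other precursor genes and the single libraries described were added after their values were seen. Alternatives were limma-trend and limma-voom (limma 3.58.1), DESeq2 1.42.0, RLE and upper-quartile scaling, no filter, a filter of 1 CPM in 12 libraries, a block for runs, and leaving out each animal, each run or the 4 libraries low in Ttr. Coordinates are given only for RefSeq promoters, on another build than the counts. Protein sequences were not used here. Of the lists of granule precursors and GABAergic interneurons, 1 gene each is not reported here and was left out of counts, medians and sums.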

Additional observations from a re-analysis of the deposited data

How the results depend on the processing

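The count of the 10 genes that were lower was 1 and became 0 with no filter on low counts and without run 2, run 3, run 4, run 5 or run 6, and 2 with the runs as a block. The count that were higher was 0 and became 1 with the block and without run 6. Leaving out single animals gave 0 to 1 higher and 0 to 2 lower. Barhl1 passed in 19 of 39 alternatives, 10 of 24 that leave out 1 animal and 9 of 15 others, with log2 fold changes from -0.23 to -0.15. Its edgeR adjusted p was 0.113 with no filter and 0.162 without run 4, and that of DESeq2 was 0.0254. The call was lost without Ethanol X4673, X4674, X4681, X4692, X4758, X4760 or X4765 or Control X4679, X4685, X4695, X4697, X4761, X4768 or X4770, each left out alone. Nfix passed in 2 alternatives, the block and without Ethanol X4694 (-0.20; edgeR, adjusted p = 0.0424), and Neurod1 in 3. The other 7 genes passed in none. All but Cntn2 and Rbfox3 kept their sign in all 39; Cntn2 kept it in 33 and Rbfox3 in 25. The cause of these changes was not tested. The replicate labels are animal numbers that no Ethanol animal shares with a Control animal, so animals were not paired one to one, and the block used the runs of these numbers. Calls over all genes numbered 1608 higher and 1028 lower in the main fit, which is 14.9% of 17736 genes tested. With no filter they numbered 1341 and 662, which is 5.72% of 35040 genes tested. They were 1206 and 612, or 10.2%, when the 4 libraries low in Ttr were left out, and 1103 and 499, or 9.05%, without run 4. Without run 2, 3, 5 or 6 the share was 12.5%, 9.73%, 12.1% or 13.1%, in that order.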
